A study of Mus musculus with 9 samples.

Results

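The 30 genes described here encode epithelial regulators, serine proteases with their inhibitors, and trafficking, cortical and membrane proteins, many of which have been tied to the transcription factor GRHL2 in epithelia. They were chosen by symbol from a fixed list, and all 30 were matched by Ensembl identifier among the 52550 genes of the count table. The counts came from mouse embryonic stem cells of the hybrid line V6.5, held near the naive state in medium with 15% FBS and LIF plus inhibitors of MEK and GSK, which all 9 libraries shared. The 4 WT libraries are wildtype, and 5 carry the label of a double knockout of KLF2 and KLF4 (DKO). The labels do not say whether the replicates were separate cultures or how many clones the mutant libraries stand for, so p-values measure only the spread between these libraries, which may be technical.

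GRHL2 is a grainyhead family factor that binds regulatory elements of epithelial genes and opens chromatin there. In epithelial tissue the genes it is known to support include E-cadherin, claudins, the OVOL zinc finger repressors, the ESRP splicing regulators, and the proteases and carriers that process and deliver proteins at the cell surface. Naive embryonic stem cells form compact E-cadherin-bound colonies and express part of this set, and the series title places GRHL2 in the switch of enhancers as cells leave the naive state.

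Library totals ran from 6557408 to 7098530 counts in WT and from 6035642 to 6617834 in the libraries labelled DKO, and 3 counts in 1 library correspond to 0.426 to 0.506 CPM (counts divided by the TMM-scaled library size). Klf2 (459.6 ± 9.87 CPM in WT, against 615 ± 19 in the libraries labelled DKO, SD, n = 4 and 5) and Klf4 (848 ± 49.1 and 1595 ± 140.0 CPM) were higher with the DKO label, so these counts do not show the knockout. The labels do not give the deleted parts, and 3′-end reads outside them check nothing. Directions below are those of the labels. All 7 listed markers of embryonic stem cells were tested, with summed levels of 2413 to 2519.8 CPM in WT, against 3306 to 3491 in the libraries labelled DKO. The 8 fibroblast markers summed to 2.64 to 4.40 and 1.15 to 3.76 CPM, with Lum at 0, the 6 endoderm markers to 2.06 to 3.27 and 3.94 to 5.38 CPM, led by Sox7 at 1.03 and 2.99 CPM, and the 6 markers of surface epithelium to 0.299 to 0.441 and 0 to 0.627 CPM, with Krt5 and Krt4 at 0. The 6 trophectoderm markers summed to 21.4 to 26.7 and 7.33 to 12.1 CPM, led by Eomes at 16 and 3.89 CPM. The part of these other cell types in the values below was not tested, and in bulk RNA fewer cells of a type and less RNA per cell cannot be told apart. Among pairs of libraries of the same group the chi-square per degree of freedom of their counts was 2.22 to 3.3 within WT and 2.36 to 4.98 within DKO, where DKO 3 and DKO 4 formed the most distant pair. Where leaving out 1 library changed a call, the value without it is given.

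Of the 30 genes, 19 had enough reads to be tested, of which 4 rose with the DKO label, 7 fell and 8 did not pass (edgeR quasi-likelihood test, Benjamini-Hochberg adjusted p under 0.05 over 11893 genes). The genes that rose were Ezr, St14, Prss8 and Rab25, and those that fell were Ovol2, Esrp1, Rab15, Arhgef19, Ap1m2, Rab11fip4 and Spint1. Over all genes tested 23.9% were called higher and 24% lower, against 21.1% and 36.8% of the tested members, so calls in themselves were common in this comparison. Changes of at least 2-fold that passed made up 10.2% of all genes tested and held 4 members, Ovol2, Esrp1, Rab15 and Rab25. Of these, Rab25 had enough reads to be tested only through the libraries labelled DKO, where it was higher. Esrp1 had enough only through WT, where it was higher. In a fit without the filter on low counts, Rab25 (edgeR adjusted p = 0.00323) and Esrp1 (edgeR adjusted p = 1.72e-07) passed too. The 2 groups did not overlap in 4 members that were higher and 5 that were lower, while over all genes tested 18.4% lay wholly higher and 19.1% wholly lower. The median log2 fold change was 0.07 over the members and 0.01 over all genes tested, and that of the members was between -0.13 and 0.08 when single libraries were left out. With a filter of 5 CPM in 4 libraries, which kept 13 members, it was -0.25.

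**Figure D1:**
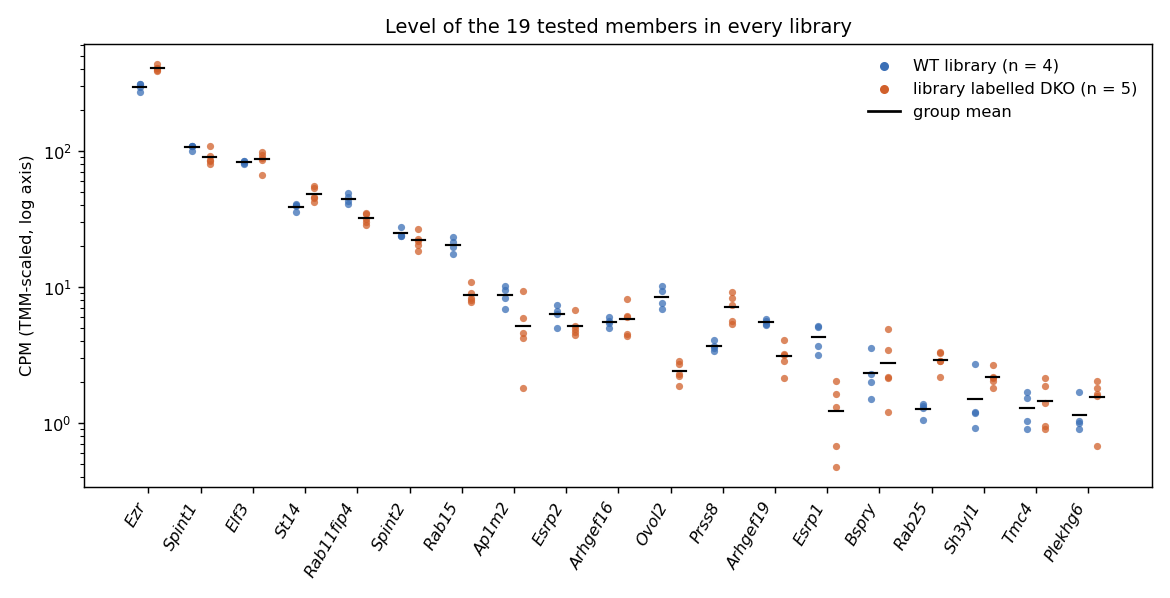
CPM on a log axis for each of the 19 tested members, ordered by level, with 1 point per library (4 WT, 5 labelled DKO) and a bar at each group mean. Ezr stood highest at 271 to 435 CPM, 7 members had a group mean of 10 CPM or more, and the points of Ap1m2 and Esrp1 in the libraries labelled DKO were spread the most widely.

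The reads are tags from the 3′ ends of transcripts, so levels were not divided by gene length. On that scale 6 of the 19 tested members lay above the median level of all genes tested, 22.9 CPM. In order of level these were Ezr, Spint1, Elf3, St14, Rab11fip4 and Spint2. Of the 11 members that could not be tested, 6 had fewer than 10 counts in all 9 libraries together.

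Among the transcription and splicing regulators, Ovol2 was 71.5% and Esrp1 70.8% lower with the DKO label, whereas for Elf3 and Esrp2 no difference passed the test, and Ovol1 and Ehf were close to absent from the reads. Of the 4 tested genes of this kind, 2 fell and none rose, with a median log2 fold change of -1.03, beside 24% of all genes tested called lower.

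Ovol2 (ENSMUSG00000037279, chromosome 2, 144305175 to 144332146, minus strand of mm10, as for the positions that follow) encodes a zinc finger repressor that holds down Zeb1 and other mesenchymal regulators in epithelia. It was counted 51, 66, 63 and 48 times in WT 1 to 4, against 18, 12, 14, 17 and 14 times in DKO 1 to 5. All 5 libraries labelled DKO lay below all 4 WT libraries. The means were 8.44 ± 1.48 and 2.39 ± 0.395 CPM (SD), a log2 fold change of -1.81 ± 0.21 (SE from edgeR, adjusted p = 9.96e-09). Its relative Ovol1 had 4 counts in WT, against 1 in the libraries labelled DKO, so nearly all reads of this pair were those of Ovol2.

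Esrp1 (ENSMUSG00000040728, chromosome 4, 11331933 to 11386783, minus strand) encodes an RNA-binding protein that directs epithelial exon choice. It was counted 21, 34, 25 and 36 times in WT 1 to 4, against 11, 13, 8, 4 and 3 times in DKO 1 to 5. The groups did not overlap, but DKO 4 and DKO 5 lay well below DKO 1 and DKO 2. The means were 4.28 ± 1.03 and 1.23 ± 0.655 CPM, a log2 fold change of -1.77 ± 0.32 (SE from edgeR, adjusted p = 2.14e-05). Esrp2, its paralogue with an overlapping set of target exons, was counted 42, 48, 34 and 47 times in WT 1 to 4, against 31, 28, 41, 29 and 33 times in DKO 1 to 5. These groups overlapped, since DKO 3 reached 6.73 CPM and WT 3 stood at 5 CPM, and the log2 fold change was -0.29 with an approximate 95% interval of -0.67 to 0.09 (edgeR adjusted p = 0.226). Esrp2 lies on chromosome 8, where the 90 other tested genes within 5 Mb had a median log2 fold change of -0.63, and it overlaps Nfatc3 on the opposite strand, which had 13119 counts and a log2 fold change of -0.63. Within each library, Esrp1 gave 33.3%, 41.5%, 42.4% and 43.4% of the Esrp1 and Esrp2 counts in WT 1 to 4, against 26.2%, 31.7%, 16.3%, 12.1% and 8.33% in DKO 1 to 5. Exon choice itself cannot be read from 3′-end tags.

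Elf3, an ETS factor of epithelial differentiation, was the most abundant regulator of the set. It was counted 532, 552, 551 and 596 times in WT 1 to 4, against 575, 563, 404, 556 and 630 times in DKO 1 to 5. DKO 3 was the lowest of all 9 libraries at 66.3 CPM, and the other 4 libraries labelled DKO (86.0 to 98.9 CPM) lay above every WT library (79.6 to 84.6 CPM). With all libraries the log2 fold change was 0.07, approximate 95% interval -0.08 to 0.23 (edgeR adjusted p = 0.468), and without DKO 3 it was 0.16 (edgeR adjusted p = 0.0421). Ehf, a related ETS factor, had 1 to 3 counts in each WT library and 0 to 2 in each library labelled DKO.

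**Figure D2:**
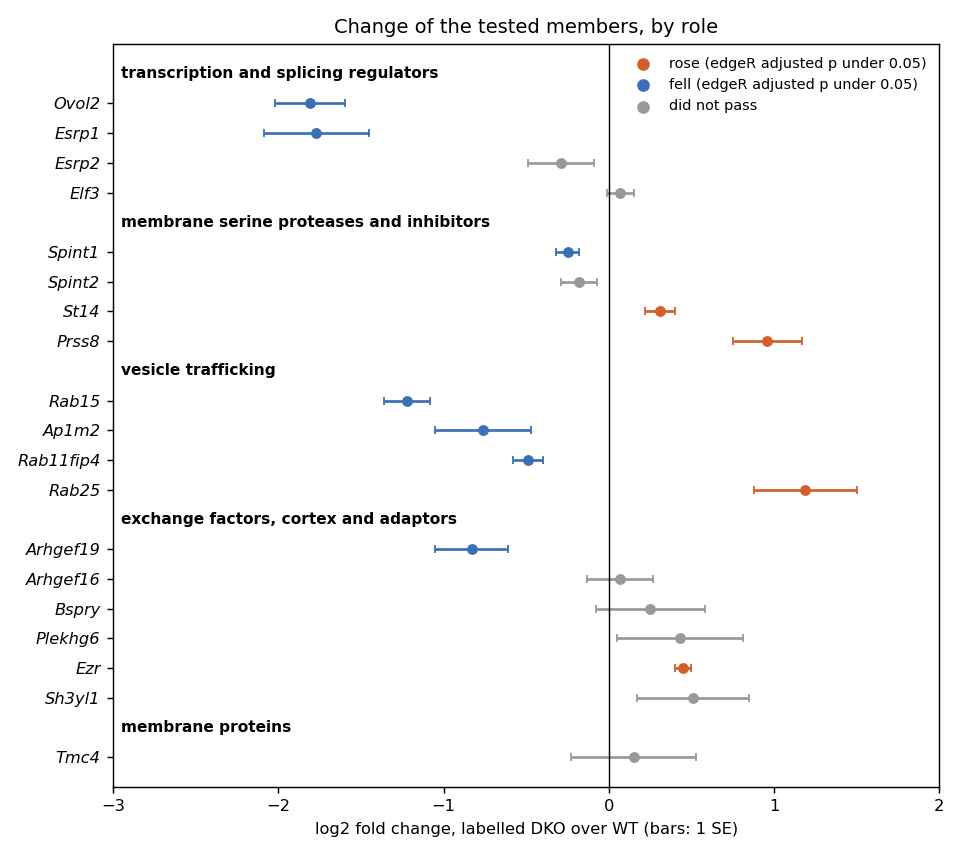
Log2 fold change of each tested member, labelled DKO over WT, with bars of 1 SE, grouped by role and coloured by the edgeR call. Of the 4 regulators all but Elf3 lie left of zero, the proteases lie right of zero and their inhibitors left of it, and Rab25 at 1.19 stands opposite the other 3 trafficking genes.

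The membrane protease genes St14 and Prss8 rose while the inhibitor gene Spint1 fell. Matriptase and prostasin, encoded by St14 and Prss8, activate each other at the surface of epithelial cells and cleave substrates such as EPCAM and sodium channel subunits. The Kunitz inhibitors encoded by Spint1 (HAI-1) and Spint2 (HAI-2) restrain both. Spint2 was the only one of the 4 tested genes that did not pass, beside 23.9% of all genes tested called higher and 24% called lower.

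St14 (ENSMUSG00000031995, chromosome 9, 31089402 to 31131853, minus strand) was counted 274, 232, 267 and 283 times in WT 1 to 4, against 281, 293, 336, 317 and 287 times in DKO 1 to 5. On the CPM scale the WT libraries ended at 41.0 and those labelled DKO began at 42.0, so the groups were separate by a narrow margin. The means were 38.9 ± 2.49 and 48.3 ± 5.69 CPM, a log2 fold change of 0.31 ± 0.09 (SE from edgeR, adjusted p = 0.00343). Prss8 (ENSMUSG00000030800, chromosome 7, 127925716 to 127930104, minus strand) was counted 27, 24, 23 and 25 times in WT 1 to 4, against 55, 34, 34, 54 and 47 times in DKO 1 to 5. Every library labelled DKO stood higher than every WT library, with DKO 1, 4 and 5 (7.38 to 9.11 CPM) above DKO 2 and 3 (5.33 and 5.58 CPM). The means were 3.66 ± 0.279 and 7.13 ± 1.65 CPM, a log2 fold change of 0.96 ± 0.21 (SE from edgeR, adjusted p = 0.000281). Prss8 overlaps Kat8 on the opposite strand, whose log2 fold change was -0.02 (edgeR adjusted p = 0.914).

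Spint1 (ENSMUSG00000027315, chromosome 2, 119237362 to 119249527, plus strand) was the most abundant member after Ezr, counted 730, 659, 744 and 764 times in WT 1 to 4, against 560, 588, 660, 476 and 551 times in DKO 1 to 5. DKO 3, at 108 CPM, lay among the WT libraries (100.5 to 109 CPM), and the other 4 lay below them at 80.3 to 92.1 CPM. The log2 fold change was -0.25 ± 0.07 (SE from edgeR, adjusted p = 0.00373), and -0.32 without DKO 3 (edgeR adjusted p = 5.82e-05). Spint2 was counted 157, 155, 189 and 170 times in WT 1 to 4, against 145, 130, 163, 134 and 117 times in DKO 1 to 5. DKO 3 was again the highest of its group at 26.8 CPM, and the log2 fold change was -0.18, approximate 95% interval -0.39 to 0.04 (edgeR adjusted p = 0.187). Without DKO 3 it was -0.25 (edgeR adjusted p = 0.051), and without WT 3, the highest WT library, it was -0.12 (edgeR adjusted p = 0.44).

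Ratios of counts taken within a library need no scaling between libraries, and were formed after the counts had been seen. There were 35.2 to 37.5 St14 counts per 100 Spint1 counts in the 4 WT libraries and 49.8 to 66.6 in the 5 libraries labelled DKO. DKO 4 gave the highest of these, and the other 4 ended at 52.1. For Prss8 the ratio was 3.09 to 3.70 in WT, against 5.15 to 11.3 in the libraries labelled DKO. Both ratios were thus higher in every library labelled DKO, DKO 3 included. They restate the counts of St14, Prss8 and Spint1 given above and are no separate support for those calls. The other proteases contributed few reads. Tmprss2 had 3 counts in WT, against 16 in the libraries labelled DKO (0 to 1 and 2 to 4 per library), which did not pass when all genes were fitted without a filter (edgeR adjusted p = 0.103). Prss22 had 1 count in all.

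In vesicle trafficking, 3 of the 4 tested genes fell and 1 rose, beside 24% of all genes tested called lower and 23.9% called higher. Rab15 and Rab11fip4 fell with no overlap between the groups, Ap1m2 fell with a wide spread, and Rab25 rose. Rab15 encodes a small GTPase of early and recycling endosomes, and Rab25 an epithelial member of the RAB11 group. Rab11fip4 encodes an effector that RAB11 proteins recruit, and Ap1m2 the µ1B subunit of the AP-1 clathrin adaptor, which sorts cargo to the basolateral membrane.

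Rab15 (ENSMUSG00000021062, chromosome 12, 76797960 to 76822908, minus strand) was counted 143, 129, 119 and 163 times in WT 1 to 4, against 60, 51, 47, 64 and 53 times in DKO 1 to 5. The groups were far apart, 17.5 to 23.1 CPM against 7.71 to 10.8. The means of 20.4 ± 2.42 and 8.76 ± 1.23 CPM gave a log2 fold change of -1.22 ± 0.14 (SE from edgeR, adjusted p = 2.39e-09). Rab15 overlaps Fntb on the opposite strand, which fell too, by less (-0.34, edgeR adjusted p = 2.08e-05). The strand setting of the counting is not given in the sources used here, so reads of such pairs may be shared or lost.

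Rab25 (ENSMUSG00000008601, chromosome 3, 88542029 to 88548300, minus strand) was counted 7, 9, 9 and 9 times in WT 1 to 4, against 19, 14, 20, 17 and 21 times in DKO 1 to 5. Its groups did not overlap, at 1.05 to 1.37 and 2.19 to 3.3 CPM, and the log2 fold change was 1.19 ± 0.31 (SE from edgeR, adjusted p = 0.0017). The ubiquitous relatives Rab11a (-0.01) and Rab11b (-0.05) did not pass, and Rab25 made up 0.971% to 1.22% of the counts of these 3 genes in WT, against 2.01% to 3.06% in the libraries labelled DKO. Rab11fip4 (ENSMUSG00000017639, chromosome 11, 79591212 to 79698023, plus strand) was counted 304, 267, 293 and 348 times in WT 1 to 4, against 191, 203, 182, 202 and 222 times in DKO 1 to 5. All 5 libraries labelled DKO (28.6 to 34.9 CPM) were below WT (40.7 to 49.4 CPM), a log2 fold change of -0.49 ± 0.09 (SE from edgeR, adjusted p = 1.55e-05). As a share of the counts of Rab11fip1 to Rab11fip5 it was 24.5% to 29.0% and 19.7% to 26.3%, which overlap.

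Ap1m2 (ENSMUSG00000003309, chromosome 9, 21294275 to 21312337, minus strand) was counted 46, 54, 69 and 67 times in WT 1 to 4, against 12, 27, 57, 35 and 29 times in DKO 1 to 5. DKO 1 was at 1.79 CPM and DKO 3 at 9.36, inside the WT range of 6.88 to 10.1 CPM. The log2 fold change was -0.76 ± 0.29 (SE from edgeR, adjusted p = 0.0384). Without DKO 3 it was -1.09 (edgeR adjusted p = 0.000137), and without DKO 1 it was -0.54 (edgeR adjusted p = 0.0357). The call was lost without WT 2, 3 or 4 (-0.79, -0.68 and -0.72, edgeR adjusted p = 0.0707, 0.108 and 0.1) and without DKO 2, 4 or 5 (-0.70, -0.82 and -0.73, edgeR adjusted p = 0.083, 0.0512 and 0.0789). Its ubiquitous counterpart Ap1m1 had a log2 fold change of -0.16 and did not pass (edgeR adjusted p = 0.0633). Ap1m1 lies on chromosome 8, where the 102 other tested genes within 5 Mb had a median log2 fold change of 0.36. Ap1m2 made up 9.87% to 14.9% of the counts of Ap1m1 and Ap1m2 in WT, against 2.93% to 15.1% with the DKO label, where DKO 3 was the highest of all 9 libraries.

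Myo5b, the myosin motor that moves RAB11 carriers, was too low for the main test, with 11, 11, 11 and 6 counts in WT 1 to 4, against 4, 2, 0, 2 and 2 in DKO 1 to 5. The groups did not overlap. In the fit without a filter, in which 24.8% of 24485 genes were called, its log2 fold change was -2.12 ± 0.56 (SE from edgeR, adjusted p = 0.00114), and DESeq2 gave an adjusted p of 0.00531. Its paralogue Myo5a rose (1.52, edgeR adjusted p = 1.41e-11), and Myo5b made up 2.31% to 4.15% of the Myo5a, Myo5b and Myo5c counts in WT, against 0% to 0.828% in the libraries labelled DKO. Tmem30b, a subunit of phospholipid flippases, had 4 to 7 counts per WT library and 0 to 7 per library labelled DKO, and did not pass without a filter (edgeR adjusted p = 0.252). Its share of the Tmem30a and Tmem30b counts was 1.76% to 3.20% in WT and 0% to 2.26% with the DKO label, which overlap. Epn3, an endocytic epsin, had 1 count in all.

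**Figure D3:**
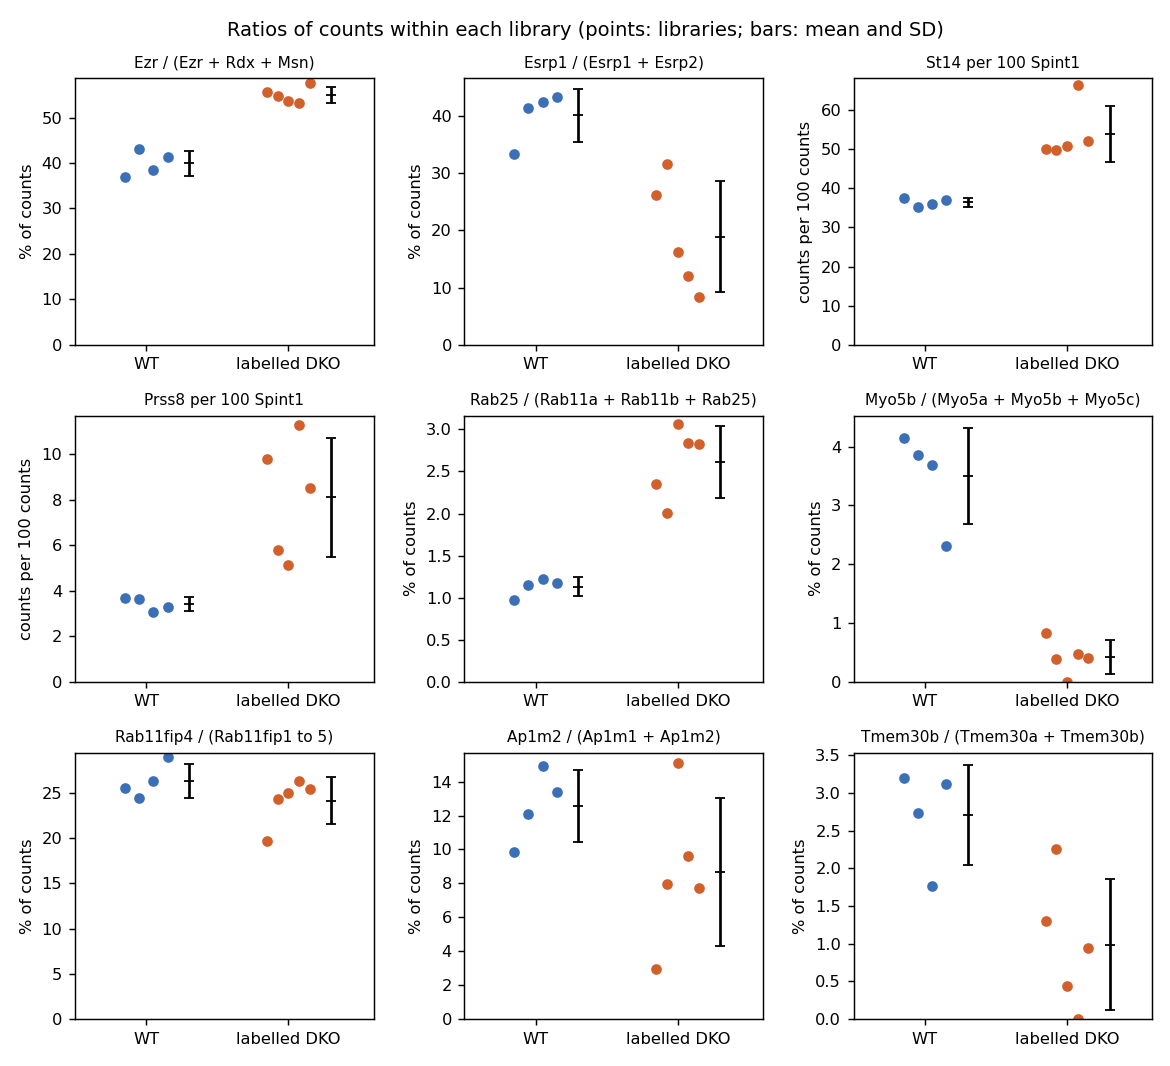
Ratios of counts within each library, as a percent or as counts per 100 counts, for 9 pairs or families, with points for the 4 WT libraries and the 5 labelled DKO and bars for mean and SD. The 2 groups are separate in 6 panels, with Ezr, St14, Prss8 and Rab25 taking more and Esrp1 and Myo5b less in the libraries labelled DKO, and they overlap for Rab11fip4, Ap1m2 and Tmem30b. The member in each of those 6 panels was also separate in CPM, so the ratios are no separate support.

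The promoters of Rab25 and Ap1m2 are shown because these trafficking genes passed the test in opposite directions and each window holds 4 matches to the searched motifs, as do those of Spint2 and Tmem30b. RefSeq promoters of build GRCm38.p6 (250 bases before to 50 after a start) were matched for 19 of the 30 members, 23 windows in all, and the rest were Ovol1, Ehf, Esrp1, Esrp2, Prss8, Prss22, St14, Rab11fip4, Myo5b, Epn3 and Plekhg6. The motifs, on both strands, were AACCNGTT (GRHL factors), CCNCACCC (KLF factors) and CACCTG (the E-box bound by ZEB and SNAI factors), and the KLF and E-box patterns can share the letters CACC. The 250 bases before each start are printed 5′ to 3′ on the gene's strand, with the matches in capitals, for Rab25 (chr3:88548280-88548529, minus strand) and Ap1m2 (chr9:21312334-21312583, minus strand).
Rab25: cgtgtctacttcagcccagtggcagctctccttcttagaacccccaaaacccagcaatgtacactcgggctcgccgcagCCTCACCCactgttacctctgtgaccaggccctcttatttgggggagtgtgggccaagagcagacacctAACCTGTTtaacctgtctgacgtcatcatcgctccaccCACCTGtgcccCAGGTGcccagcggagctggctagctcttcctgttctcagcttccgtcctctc
Ap1m2: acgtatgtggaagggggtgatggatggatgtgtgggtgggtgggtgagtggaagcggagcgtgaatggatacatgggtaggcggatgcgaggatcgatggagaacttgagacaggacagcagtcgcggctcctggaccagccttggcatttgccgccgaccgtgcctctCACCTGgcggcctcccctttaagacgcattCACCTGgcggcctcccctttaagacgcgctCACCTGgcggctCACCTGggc
The Rab25 window holds AACCTGTT beginning 102 bases before the start, CCTCACCC at 171 and E-boxes at 64 and 53. The Ap1m2 window holds 4 E-boxes, at 81, 51, 21 and 9 bases before the start. Among the members AACCNGTT was found in the Rab25 window alone, 1 of 23 (4.35%), and in 2.09% of all 32851 RefSeq promoters. CCNCACCC was in 6 of 23 (Elf3, Ezr, Rab25, Spint1, Spint2 and Tmc4, 26.1%) and in 16.6% of all. CACCTG was in 10 of 23 (43.5%), among them those of Elf3 and Tmem30b and 1 window of Rab15, and in 20.2% of all. The windows at the other starts of Rab15 held no match. The Ovol2 window holds none of these letters.

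Among genes of the cell cortex, exchange factors and adaptors, Ezr rose, Arhgef19 fell and 4 others did not pass. Over all genes tested 23.9% were called higher and 24% lower. Ezrin, encoded by Ezr, ties the plasma membrane to cortical actin, mainly at apical surfaces and microvilli. Ezr (ENSMUSG00000052397, chromosome 17, 6738041 to 6782784, minus strand) was the most abundant member, counted 1815, 2031, 2006 and 2193 times in WT 1 to 4, against 2594, 2587, 2487, 2341 and 2773 times in DKO 1 to 5. The groups were clearly separate, at 271 to 311 CPM and 388 to 435 CPM. The means were 297 ± 18.5 and 406 ± 18.2 CPM, a log2 fold change of 0.45 ± 0.05 (SE from edgeR, adjusted p = 2.21e-09). The other ERM proteins went the other way, with Msn, which encodes moesin, falling from 166 ± 10 to 78.8 ± 7.01 CPM (edgeR adjusted p = 3.48e-16) and Rdx, which encodes radixin, by 0.14 on the log2 scale (edgeR adjusted p = 0.0278). Ezr thereby went from 37.0% to 43.1% of the counts of these 3 genes in WT to 53.3% to 57.6% in the libraries labelled DKO.

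Arhgef19 (ENSMUSG00000028919, chromosome 4, 141239499 to 141257564, plus strand) encodes a guanine nucleotide exchange factor. It was counted 39, 37, 36 and 37 times in WT 1 to 4, against 19, 26, 13, 19 and 20 times in DKO 1 to 5. The groups did not overlap, and the log2 fold change was -0.83 ± 0.22 (SE from edgeR, adjusted p = 0.00225). Arhgef16, another exchange factor, had 34 to 40 counts per WT library and 29 to 48 per library labelled DKO, and its log2 fold change of 0.07 had an approximate 95% interval of -0.33 to 0.47 (edgeR adjusted p = 0.805). So of these 2 exchange factors at about the same WT level (5.50 CPM each), 1 passed and 1 did not, and their difference was not tested.

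Plekhg6, an exchange factor acting with myosin, lies on chromosome 6, where the 82 other tested genes within 5 Mb had a median log2 fold change of 0.35, and its own value was 0.43 with an approximate 95% interval of -0.31 to 1.18 (edgeR adjusted p = 0.364), or 0.66 without WT 2, its highest WT library (edgeR adjusted p = 0.232). Bspry, a B-box and SPRY domain protein, ranged from 8 to 31 counts within the libraries labelled DKO alone and did not pass (0.25, edgeR adjusted p = 0.567). Sh3yl1, a lipid-binding SH3 protein, was counted 8, 6, 8 and 19 times in WT 1 to 4, against 12, 17, 13, 13 and 13 times in DKO 1 to 5. WT 4 was above all other libraries, and the log2 fold change was 0.51 (edgeR adjusted p = 0.221), or 0.96 without WT 4 (edgeR adjusted p = 0.0377). Macc1, an inducer of the receptor gene Met, had no count in any library, which allows up to 0.506 CPM per library for counting error alone.

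The remaining membrane proteins were scarce. Tmc4, a channel-like protein, had 6 to 12 counts per WT library and 6 to 13 per library labelled DKO, and it did not pass (0.15, approximate 95% interval -0.60 to 0.90, edgeR adjusted p = 0.775). It overlaps Leng1 on the same strand, so its reads are uncertain. Tmem54 had 2, 1, 1 and 2 counts in WT, against none in the libraries labelled DKO. Against a floor of 3 counts over the DKO group this was 2.32-fold lower, with the few WT counts taken as exact. It passed in the fit without a filter (edgeR adjusted p = 0.0426), while DESeq2 gave no adjusted p for it. Tmem54 overlaps Hpca on the opposite strand, which had 36 counts, so its reads are uncertain too. Cdcp1, a transmembrane substrate of SRC kinases, had 3 to 13 and 4 to 13 counts, and Prom2, a prominin of membrane protrusions, had 1 count in all.

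**Figure D4:**
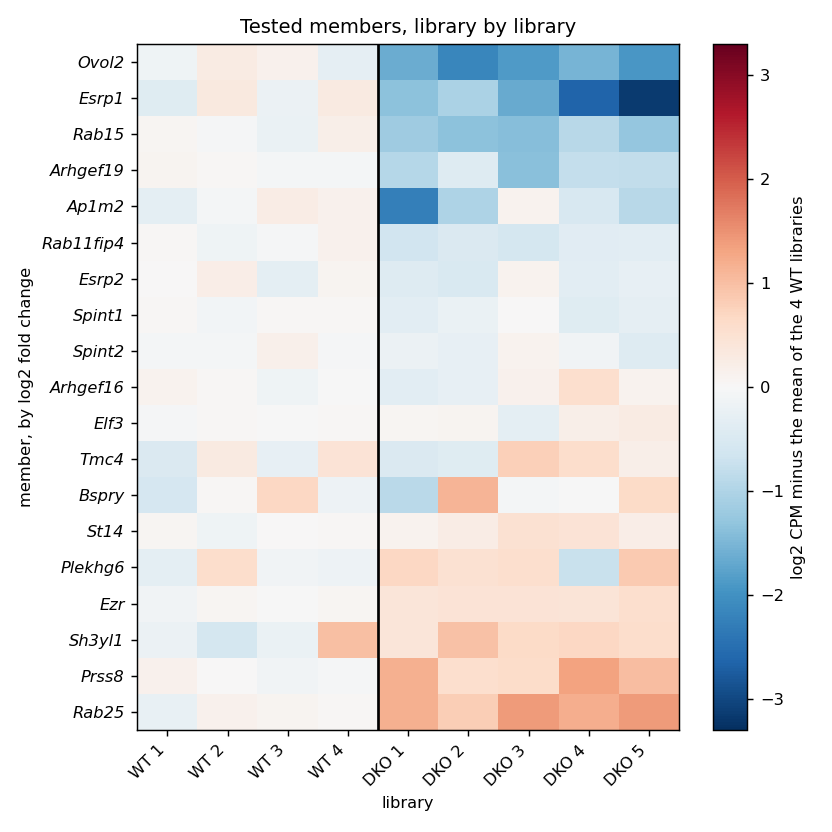
Log2 CPM of the 19 tested members (rows, from the largest fall to the largest rise) in each of the 9 libraries, as the difference from the mean of the 4 WT libraries. Ovol2, Esrp1, Rab15, Arhgef19 and Rab11fip4 are below WT in all 5 libraries labelled DKO and St14, Ezr, Prss8 and Rab25 above, while DKO 3 differs from the other 4 for Ap1m2, Spint1 and Elf3.

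Over the 19 tested members, the numbers in which DKO 1 to 5 were the highest of their group were 0, 4, 6, 4 and 5, and those in which they were the lowest were 8, 4, 3, 2 and 2. DKO 3 was thus an extreme about as often as DKO 1 and DKO 2. Without DKO 3 the numbers that rose and fell were 5 and 7, the addition being Elf3.

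Other genes of the same programme also went both ways. The counts called in these lists stand beside 23.9% called higher and 24% called lower over all genes tested. The 3 grainyhead genes themselves differed. Grhl2 was counted 8, 21, 26 and 35 times in WT 1 to 4, against 2, 9, 2, 5 and 7 times in DKO 1 to 5, with WT 1 below DKO 2. It missed the filter on low counts, and in the fit without that filter its log2 fold change was -2.03 ± 0.37 (SE from edgeR, adjusted p = 3.81e-07), while DESeq2 gave an adjusted p of 0.000284. Grhl3 rose (1.02, from 4.76 ± 0.358 to 9.65 ± 1.69 CPM, edgeR adjusted p = 1.58e-05), whereas no change passed for Grhl1 (-0.38, edgeR adjusted p = 0.186). Of the 7 tested among 14 other epithelial transcription factors, 4 rose and 2 fell, with a median of 0.81. The AP-2 gene Tfap2c rose from 66.3 ± 3.10 to 260.3 ± 31.9 CPM, and its relative Tfap2a fell from 26.3 ± 2.71 to 4.35 ± 1.16 CPM. Of the repressors of epithelial genes, 2 of 6 were tested. Zeb1, which OVOL proteins repress in epithelia, rose by a log2 fold change of 0.37 ± 0.12 (SE from edgeR, adjusted p = 0.0126), from 14.1 ± 2.22 to 18.3 ± 1.18 CPM. Its groups were separate in CPM, although the highest WT count (109) exceeded the lowest count with the DKO label (108). Any link between Zeb1 and the fall of Ovol2 was not tested. Snai1 fell (-1.56, edgeR adjusted p = 1.06e-06), from 7.53 to 2.54 CPM.

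All 8 other splicing regulators were tested, and 2 rose and 1 fell, with a median of -0.04. Rbm47, an RNA-binding protein of epithelial splicing, had the largest change, from 26.9 ± 3.70 to 111 ± 18.6 CPM (2.03, edgeR adjusted p = 2.19e-08), opposite to Esrp1. Qk rose (0.24) and Ptbp1 fell (-0.19), and Srsf1 (-0.01) did not pass. Of 16 other membrane proteases, substrates and receptors, 4 were tested. Serpine2, a serine protease inhibitor, rose from 3.36 ± 0.716 to 17.4 ± 1.86 CPM (2.37, edgeR adjusted p = 1e-13), F2rl1, the protease-activated receptor PAR2, fell (-0.30, edgeR adjusted p = 0.00711), and Epcam (57.8 ± 3.54 and 57.6 ± 3.94 CPM) did not pass. The sodium channel subunit Scnn1g had no reads.

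Of 21 other AP-1, RAB11 and carrier genes, all tested, 5 rose and 5 fell, with a median of -0.06. Ap1g1, the γ subunit of AP-1 (-0.58), and Rab8a, a GTPase of apical delivery (-0.63), fell, and Ap1s1 (-0.10) did not pass. Ap1g1 and Rab8a are on chromosome 8, where the tested genes within 5 Mb had medians of -0.67 around Ap1g1 and 0.35 around Rab8a. The other genes of this list that fell are on other chromosomes. Of 18 paralogues of members 2 rose and 5 fell, with a median of -0.07. These included Elf4, a relative of Elf3 (-1.88), and Tmc6 (-1.79), beside Msn, and Rab14 (0.02) did not pass.

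Of 6 tested partners of ezrin, 5 fell and 1 rose, with a median of -0.70. Calls of lower made up 24% of all genes tested. The sialomucin gene Podxl (-0.75, edgeR adjusted p = 1.6e-06), and Slk (-0.69, edgeR adjusted p = 5.17e-11) and Stk10 (-0.71, edgeR adjusted p = 3.66e-05), kinases that phosphorylate ERM proteins, fell while Ezr rose. Of 17 tested junction and keratin genes, 3 rose and 7 fell, with a median of -0.29. Cdh1 (-0.97), Krt8 (-2.35) and Cldn7 (-1.60) fell. Cdh1, for E-cadherin, lies on chromosome 8 amid tested genes whose median was -0.63.

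**Figure D5:**
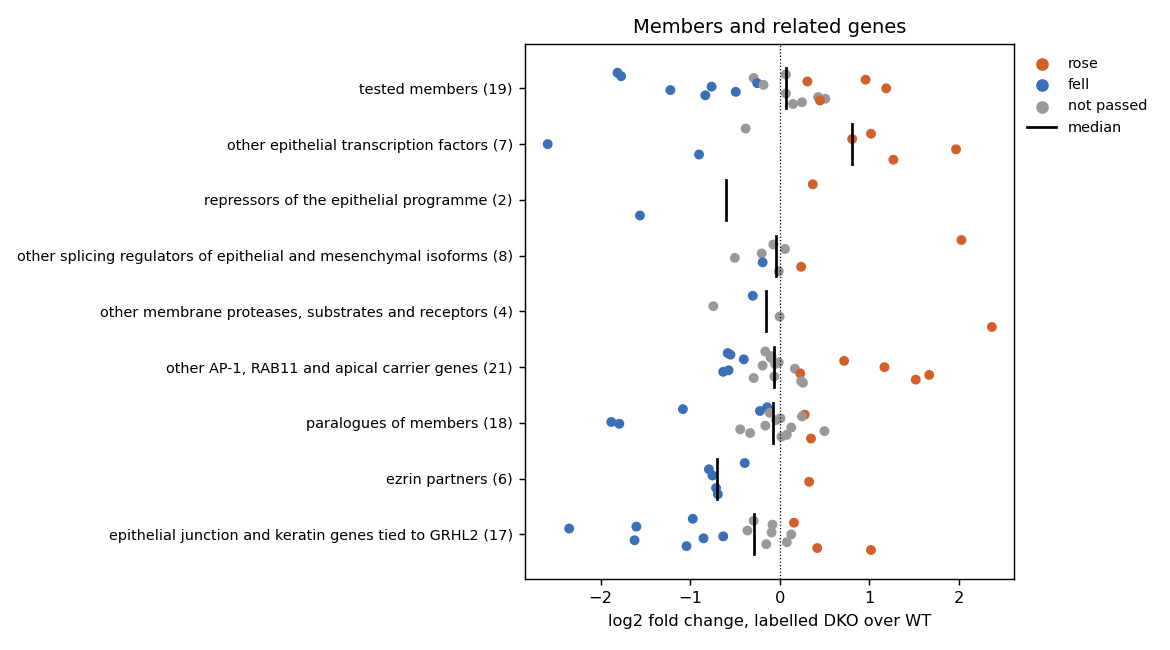
Log2 fold changes, labelled DKO over WT, of the tested members and of the tested genes of 8 related lists, with 1 point per gene coloured by the edgeR call and a bar at each median. Each list spreads to both sides of zero, and the ezrin partners have 5 of 6 genes on the left, with a median of -0.70. Of all genes tested, 24% were called lower.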

How the data were processed

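Poly(A) RNA of 9 libraries was profiled with a stranded 3′-end kit (600 ng total RNA, QuantSeq FWD, per the labels' protocols). The deposited values are whole-number exon read counts per Ensembl gene, not normalized. Build mm10 and the programs STAR, cutadapt, DESeq2 and featureCounts are named per the submitters' processing notes. For their roles and versions, the annotation release, the strand setting and multi-mapped reads, the entry is "not given in the sources used here". Of 52550 identifiers, 52403 matched GENCODE mouse release 21 (mm10), the source of symbols and coordinates.

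Genes kept by filterByExpr were scaled by TMM factors and fitted in edgeR 4.0.16 (R 4.3.3; robust quasi-likelihood test, genotype label the only term, all 9 libraries), with Benjamini-Hochberg adjustment over 11893 genes. Standard errors were derived by dividing each fold change by the root of F, and approximate 95% intervals are 1.96 of them either side. CPM are means ± SD on TMM-scaled sizes. These intervals include the spread between libraries, whereas floors of 3 counts cover counting error only. On data simulated for this comparison (11893 genes, 200 changed), 63.3% of changes of 0.5 and 94% of changes of 1 (log2) were recovered, and 0.104% of unchanged genes were called. In the data themselves 47.8% of genes were called, far more than were changed in the simulation. The changed genes were also drawn from all genes tested, whatever their level. These shares therefore need not hold for the real fit or for the members. Library pairs within a group (16) had a chi-square per degree of freedom of 2.22 to 4.98, so none looked like 1 library deposited again.

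The members, related lists and naming rule were chosen with earlier results of these data known. All 30 members are named. Of each related list, up to 3 passing genes with the smallest adjusted p and the most abundant gene that did not pass are named, with the 3 Grhl genes, Klf2 and Klf4. The most abundant junction gene that did not pass is not reported here. Rab11a, Rab11b, Ap1m1, Rdx and Scnn1g, and the ratios within libraries, were picked after their values were seen. Alternatives were RLE factors, DESeq2 1.42.0, no filter, a filter of 5 CPM in 4 libraries, a replicate block, leaving out each library, and leaving out chromosomes 6, 8 and Y.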

Additional observations from a re-analysis of the deposited data

Results flagged for a closer look

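Of 38 groups of libraries examined (19 tested members, each with 2 groups), 4 held a library that stood far from the rest of its group by Dixon's test, where chance gives about 1 in 20. All 4 were in WT. Spint1 was 100.5 CPM in WT 2, against 109 CPM in each of the other 3. Spint2 was 27.8 CPM in WT 3, against 23.5 to 24.1. Plekhg6 was 1.68 CPM in WT 2, against 0.898 to 1.03. Sh3yl1 was 2.7 CPM in WT 4, against 0.915 to 1.2.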

How the results depend on the processing

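Over 15 alternative analyses, 10 of the 11 called members kept their direction and call wherever they were tested, the exception being Ap1m2, whose call was lost in 6 of 9 fits that left out 1 library (edgeR adjusted p = 0.0512 to 0.108). Leaving out 1 library gave 4 to 5 members higher, 6 to 7 lower and a median of -0.13 to 0.08, so the sign of the median is not settled. Over all genes it gave 2560 to 2849 called higher and 2661 to 2880 lower. The filter of 5 CPM in 4 libraries left 13 members, with 3 higher and 6 lower, and a median of -0.25, since it dropped 6 low members. With the replicate block, on WT 1 to 4 and DKO 1 to 4, 4 members were higher and 7 lower, with a median of 0.01, and 2699 and 2798 genes were called. The block changed no member's call. Deviations of same-numbered libraries correlated at 0.0691, 0.0103, 0.0701 and 0.034, each the best match among numbers 1 to 4. However, WT 2 correlated more with DKO 5, at 0.052. This was at most a hint from the data, so the numbers were not taken to pair the libraries. The log2 fold change changed sign for Arhgef16 without DKO 4 (-0.07, range without 1 library -0.07 to 0.16) and Bspry without DKO 2 (-0.06, range -0.06 to 0.52), neither called. Elf3 (0.16, without DKO 3) and Sh3yl1 (0.96, without WT 4) gained a call, and the cause was not tested. Reads set the limit for 11 members, which had at most 13 counts in a library.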
